A study of Mus musculus with 11 samples.

Results

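The Hippo pathway is the brake on the transcriptional co-activator YAP. In its core, the kinases MST1 (Stk4) and MST2 (Stk3), held by the scaffold SAV1, activate LATS1 and LATS2, which phosphorylate YAP and keep it out of the nucleus. NF2 (merlin), the KIBRA proteins WWC1 and WWC2, and FRMD6 act at the plasma membrane and feed into this core, while PTPN14 is a phosphatase-family protein that binds YAP directly. In the liver, loss of these brakes is known to cause overgrowth. The rows examined were those whose symbol was Lats1, Lats2, Stk3, Stk4, Sav1, Nf2, Wwc1, Wwc2, Frmd6 or Ptpn14, and all 10 were found among the 20893 genes of the table. They were chosen by name, with earlier results of these data known. The question they address is whether active YAP changes the transcripts of its own inhibitors.

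Bulk RNA-seq was carried out on 11 livers of C57BL/6 mice. The 4 control livers had the genotype ROSA26-rtTA-IRES-EGFP; WT and doxycycline food for 7 days. The other livers had the genotype ROSA26-rtTA-IRES-EGFP; tetYAP and received doxycycline food for 3 days (4 livers) or 7 days (3 livers), so every animal carried the rtTA allele and every animal received the drug. Per the study's methods the transgene encodes YAP S127A, a constitutively active form inserted at Col1A1, and Alb-CRE, driven by the albumin promoter, restricts the transactivator to albumin-expressing cells. Ages were not given in the sources used here. There was no control group at 3 days of doxycycline. The labels name replicates but do not say whether litters or cages were shared, so p-values measure the spread between these livers. In bulk tissue fewer cells of a type and less RNA per cell cannot be told apart.

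The deposited values are eRPKM, reads scaled to exon length and to library size, so levels can be compared between genes, except for the most abundant transcripts. The libraries held 1250317 to 5937585 reads on genes, a 4.75-fold range, with group medians of 3150239 in controls, 3650053 at 3 days and 5353655 at 7 days. Alb gave 2417 to 3102 reads in every liver despite that range, so the most abundant transcripts did not scale with depth. The members had 14 to 1762 reads per library. The median gene was 0.26 higher at 7 days than in controls on the log2 scale. That shift was 0.03 after rescaling with median-ratio size factors and -0.08 after quantile normalization. By the balance of Xist and Ddx3y, 2 of 4 controls, 2 of 4 livers at 3 days and 3 of 3 livers at 7 days were female. Hepatocyte transcripts were abundant in every liver: the summed eRPKM of 7 hepatocyte markers was 1539 to 4565 in the control livers, 1896 to 2480 after 3 days and 1172 to 1315 after 7 days. Like Alb, the markers Apoa1 (1078 to 1496 reads) and Apob (15219 to 20940 reads) did not scale with depth. The sum was highest in control 4, the shallowest library, and lowest in 7-day liver 2, the deepest. It therefore does not measure the share of hepatocytes.

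A gene was called changed where limma gave an adjusted p under 0.01 and a log2 fold change beyond 0.5 in either direction, computed on log2(eRPKM + 0.5), which understates the change of low genes. The YAP targets Cyr61 and Ctgf, which encode secreted matrix proteins, and Ankrd1, an ankyrin repeat protein, served to check the induction. Cyr61 was 9.43 ± 3.63 eRPKM in controls (SD, n = 4), 39.0 ± 13.8 at 3 days (n = 4) and 91.0 ± 0.41 at 7 days (n = 3). Ctgf was 8.69 ± 3.92, 24.1 ± 10.1 and 96.7 ± 8.28 eRPKM in the same order. Ankrd1 was 0.75 ± 0.20, 0.15 ± 0.12 and 17.7 ± 2.34 eRPKM, so that at 3 days it lay below every control, though it was not called there (limma adjusted p = 0.110). That difference rests on 2 to 8 reads per control and 0 to 2 per 3-day liver. Over all genes tested, 2.25% had every liver at 3 days below every control. Yap1 itself was 18.2 ± 3.10, 16.8 ± 1.83 and 18.4 ± 0.86 eRPKM (log2 fold change at 7 days 0.03, limma adjusted p = 0.917). Whether transgene reads can count toward that row is not given in the sources used here.

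Of the 10 regulators, 4 rose at 7 days and none fell: Wwc1, Wwc2, Lats2 and Stk4. The background was 18.0% of the 14240 genes tested called higher at 7 days and 5.77% called lower. At the looser limit of an adjusted p of 0.05 with no bound on the fold change, 6 of the 10 passed (Nf2 and Ptpn14 joined), beside 37.8% of all genes. The median log2 fold change of the 10 was 0.90, beside 0.26 over all genes tested. At 3 days none of the 10 was called, beside a background of 0.0421% of genes (0.0843% called higher with size factors), and 3 had an unadjusted p under 0.05, all higher, beside 12.1% of all genes tested at that limit. None passed the looser limit at 3 days either, beside 0.288% of all genes. limma-voom on recovered reads also called none at 3 days. Between 3 and 7 days 4 of the 10 rose (Wwc1, Ptpn14, Stk4 and Wwc2) and none fell, beside 14.0% of genes called higher, 5.31% called lower and 19.3% called in either direction. At the looser limit 7 of the 10 passed there, beside 35.7% of all genes, and 7 had all 3 livers at 7 days above all 4 at 3 days, beside 31.3%. Of the 7 hepatocyte markers 2 (Cyp2e1 and Ttr) were called lower at 7 days and none higher. Cyp2e1 had 1721 to 2353 reads in the control livers and 968 to 1029 at 7 days. Ttr had 678 to 1195 and 663 to 721 reads. Markers of other cells and states moved in the same livers at 7 days. All 6 proliferation markers rose, and their summed eRPKM was 4.74 to 19.0 in the controls and 97.8 to 156 at 7 days. The sum of 6 endothelial markers was 58.9 to 116 and 151 to 182, with Cdh5 and Lyve1 called higher. Pecam1 and Stab2 also had higher means at 7 days, but Kdr (mean eRPKM 17.0, beside 18.4 in controls) and Tek (7.00, beside 8.97) had lower ones. The sum of 7 biliary markers was 42.9 to 53.4 and 67.8 to 123, with 1 (Krt7) of the 6 tested called higher. Spp1 made up most of that sum in every liver, and the 3-day livers already spanned 44.6 to 87.1. Of 6 stellate and fibroblast markers 1 (Reln) fell, with sums of 69.6 to 108 and 49.3 to 63.3. Their part in the members' values was not tested. The rest of the account follows the members by role.

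**Figure D1:**
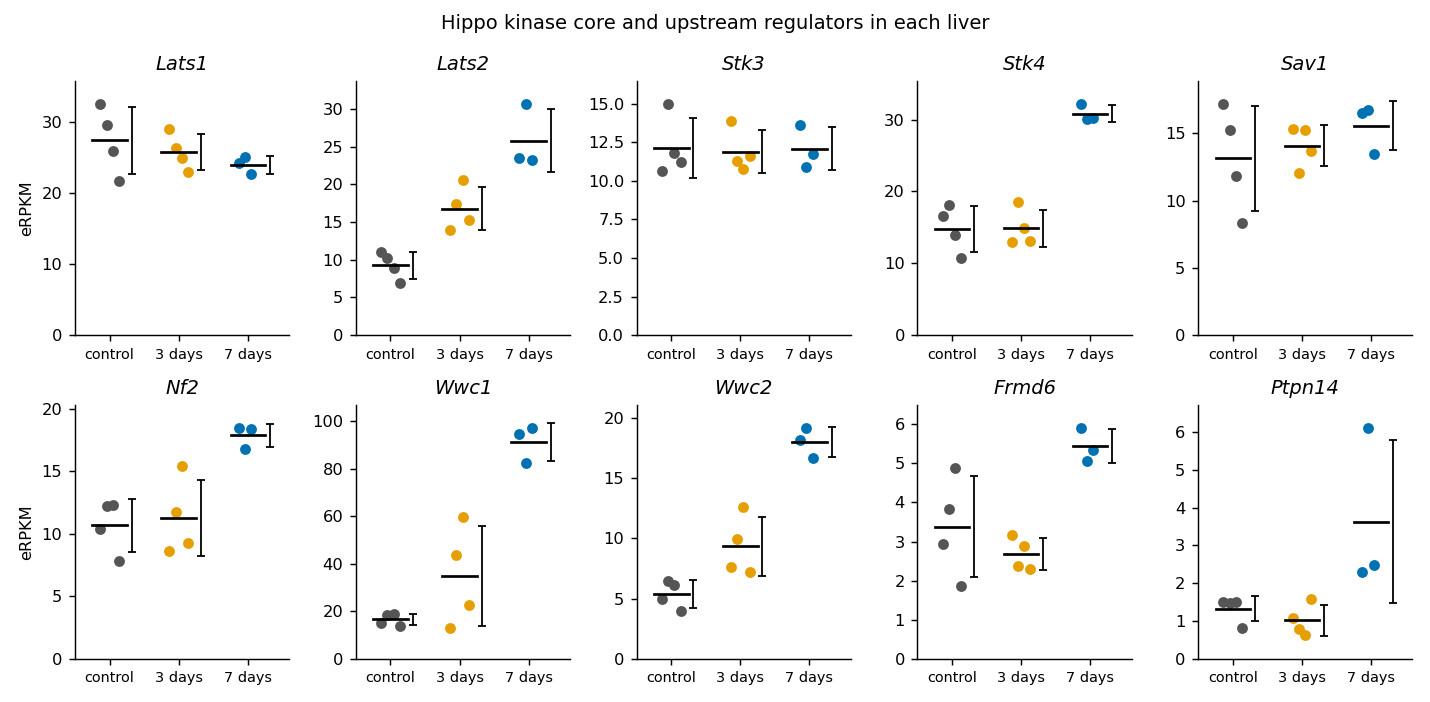
eRPKM (vertical axes, from 0) of the 10 regulators in each liver, for 4 controls, 4 livers at 3 days and 3 livers at 7 days. Points are livers, horizontal bars are group means and the vertical bars beside them are 1 SD. At 7 days all 3 livers lie above every control for 7 genes. These are Wwc1, Wwc2, Lats2 and Stk4, which were called, and Nf2, Frmd6 and Ptpn14, which were not. Lats1, Stk3 and Sav1 lie in the control range at 7 days.

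LATS1 and LATS2 are the kinases that phosphorylate YAP itself. Lats1 lies at chr10:7401007-7436256 on the plus strand and Lats2 at chr14:58260914-58377225 on the minus strand (mm9). In controls 1 to 4 Lats2 measured 10.98, 10.2, 8.91 and 6.88 eRPKM. At 3 days it measured 13.95, 17.4, 20.5 and 15.3 eRPKM in livers 1 to 4. At 7 days it measured 23.5, 30.7 and 23.2 eRPKM. Lats2 was thus higher in every liver at 3 days than in every control, and higher again in every liver at 7 days. The log2 fold change at 7 days was 1.44 (SE 0.20, limma adjusted p = 1.42e-04). At 3 days it was 0.83 (SE 0.18) and missed the threshold, with a limma adjusted p of 0.0833. Over all genes tested, 3.38% had every liver at 3 days above every control. Between 3 and 7 days Lats2 differed by 0.61 (SE 0.20, limma adjusted p = 0.0312), which was not called.

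Lats1 did not follow Lats2. It measured 32.5, 29.6, 25.9 and 21.7 eRPKM in controls, 28.97, 26.3, 24.9 and 22.9 at 3 days, and 24.2, 25.04 and 22.6 at 7 days. The groups overlapped, and the 7-day difference from controls was -0.18 in log2 (95% interval -0.52 to 0.17, limma adjusted p = 0.408). After size-factor scaling the same difference was -0.44 with a limma adjusted p of 0.0247, which was also not called.

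Lats2 started as the minor LATS transcript and ended level with Lats1. The plain ratio of Lats2 to Lats1 within a liver was 0.318 to 0.346 in the control livers, 0.482 to 0.823 after 3 days and 0.973 to 1.22 after 7 days, with no overlap between the groups. On the log2 scale, with 0.5 eRPKM added to each gene, it was -1.52 ± 0.05 in controls (SD, n = 4), -0.61 ± 0.31 at 3 days (n = 4) and 0.09 ± 0.17 at 7 days (n = 3). The difference from controls was 0.91 at 3 days and 1.62 at 7 days, and the exact two-sided permutation p was 0.0286 for each, the smallest these group sizes allow. The step from 3 to 7 days was 0.71 (exact permutation p = 0.0571). Adjusted over the 9 ratio tests of 3 pairs, the lowest p was 0.0514 (exact permutation test, Benjamini-Hochberg), so none passed 0.05 after correction. Apart from the added 0.5 eRPKM, this ratio does not depend on how a library is scaled. The summed eRPKM of both genes was 36.7 ± 6.47 in controls, 42.6 ± 3.10 at 3 days and 49.7 ± 5.24 at 7 days.

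The exons of Lats2 share 332 bases with those of Xpo4, a nuclear transport factor on the same strand, so strand cannot separate reads there. Xpo4 measured 6.74 ± 1.14, 6.70 ± 1.80 and 8.36 ± 0.72 eRPKM in the 3 groups and was not called (log2 fold change at 7 days 0.30, limma adjusted p = 0.322).

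MST1 and MST2 are the upstream kinases of the core, and they also parted. Stk4, also known for its role in lymphocytes, lies at chr2:163896058-163981260 on the plus strand (mm9). Stk4 measured 16.5, 18.0, 13.9 and 10.7 eRPKM in controls and 13.0, 18.5, 14.9 and 13.1 eRPKM at 3 days. At 7 days it measured 32.2, 30.1 and 30.2 eRPKM. The 3-day livers lay among the controls, and all 3 livers at 7 days lay above both groups. The log2 fold change at 7 days was 1.06 (SE 0.19, limma adjusted p = 9.74e-04). At 3 days it was 0.02 (95% interval -0.37 to 0.40), and it took the other sign, at -0.0031 and -0.074, under size factors and quantile normalization. From 3 to 7 days it rose by 1.04 (SE 0.19, limma adjusted p = 0.0014).

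Transcripts of immune cells moved in the same livers as Stk4. Ptprc, the pan-leukocyte antigen CD45, was 7.28 ± 2.27 eRPKM in controls, 7.79 ± 2.10 at 3 days and 28.8 ± 3.39 at 7 days. The summed eRPKM of 5 macrophage markers was 146 to 307 in the control livers, 165 to 322 after 3 days and 591 to 633 after 7 days, and 4 of the 5 (Cd5l, Cd68, Csf1r and Marco) rose. The summed eRPKM of 6 lymphocyte markers was 8.23 to 16.1, 8.97 to 14.1 and 31.8 to 43.6, with 1 of 6 (Ptprc) called, and none of the markers of these lists was at 0 in all livers of a group. Their part in the Stk4 result was not tested.

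Stk3, at chr15:34805251-35085561 on the minus strand (mm9), was flat. It measured 10.6, 15.0, 11.8 and 11.2 eRPKM in controls, 13.9, 11.3, 10.8 and 11.6 at 3 days, and 13.6, 10.9 and 11.7 at 7 days. Against controls the 7-day log2 difference was -0.00 (95% interval -0.38 to 0.38, limma adjusted p = 0.999), and size-factor scaling put it at -0.26. The log2 ratio of Stk3 to Stk4 was -0.26 ± 0.28 in controls, -0.30 ± 0.34 at 3 days and -1.32 ± 0.11 at 7 days. The difference at 7 days was -1.06 from controls and -1.02 from 3 days (exact two-sided permutation p = 0.0286 for each, adjusted 0.0514). At 3 days the ratio differed from controls by -0.04 (exact permutation p = 0.886).

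SAV1 is the scaffold of this kinase pair. Sav1 measured 17.2, 15.2, 11.8 and 8.30 eRPKM in controls, 15.3, 12.1, 15.2 and 13.7 at 3 days, and 16.5, 16.7 and 13.5 at 7 days. The groups overlapped at both times. The log2 fold change at 7 days was 0.28 (95% interval -0.21 to 0.77, limma adjusted p = 0.351), 0.02 with size factors and -0.14 with quantile normalization, so its direction is not fixed. Sav1 lies at chr12:71065999-71087989 on the minus strand (mm9).

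**Figure D2:**
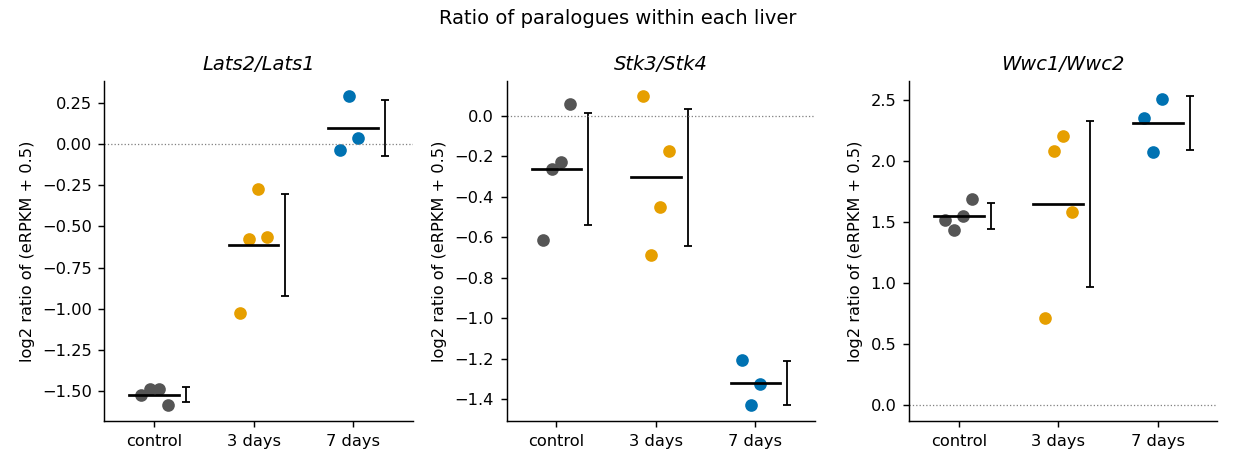
log2 ratio of (eRPKM + 0.5) between paralogues within each liver (vertical axes) for Lats2 to Lats1, Stk3 to Stk4 and Wwc1 to Wwc2 in 3 groups. Points are livers, horizontal bars group means and vertical bars 1 SD, and the dotted line marks equal levels. The Lats2 to Lats1 ratio climbs from -1.52 to -0.61 and 0.09, and the Stk3 to Stk4 ratio falls to -1.32 at 7 days.

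WWC1 (KIBRA) and WWC2 are scaffold proteins that bind LATS and NF2, and their genes changed most of the 10 at 7 days. Wwc1 lies at chr11:35651902-35794029 and Wwc2 at chr8:48911437-49075897, both on the minus strand (mm9). Wwc1 measured 15.2, 18.3, 19.0 and 13.8 eRPKM in controls. At 3 days it measured 12.9, 43.6, 59.6 and 22.7 eRPKM in livers 1 to 4. At 7 days it measured 94.6, 82.2 and 97.1 eRPKM. All 3 livers at 7 days lay above all other livers, and at 3 days 3 of 4 lay above the controls while liver 1 lay below them. The log2 fold change at 7 days was 2.43 (SE 0.39, limma adjusted p = 3.88e-04), or 2.17 above the median gene, and the means differed 5.51-fold. At 3 days it was 0.83 (SE 0.36, limma adjusted p = 0.377), and it was 0.50 without liver 3 of that group and 1.22 without liver 1, neither of them called.

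The lower 3-day livers in Wwc1, livers 1 and 4, also shared a label. Livers 1 and 4 at 3 days, and liver 2 at 7 days, carry the suffix MF in the table, whose meaning is not given in the sources used here. Without those 3 libraries, an alternative chosen after seeing the data, Wwc1 was called at 3 days. Its log2 fold change was then 1.60, with a limma adjusted p of 0.0060. With the label as a covariate and no liver left out, Wwc1 was not called at 3 days. Livers 1 and 4 were also lower in Cyr61, at 26.8 and 27.5 eRPKM, beside 48.3 and 53.4 in livers 2 and 3. The summed eRPKM of 6 proliferation markers was 13.9 and 38.9 in livers 1 and 4 and 63.8 and 97.4 in livers 2 and 3. The part of the label in these values was not tested.

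Wwc2 measured 4.99, 6.45, 6.14 and 3.94 eRPKM in controls, and 7.65, 9.91, 12.6 and 7.21 eRPKM at 3 days. At 7 days it measured 18.2, 19.2 and 16.7 eRPKM. As for Lats2, the 3 groups did not overlap. The log2 fold change was 1.67 at 7 days (SE 0.23, limma adjusted p = 1.27e-04) and 0.73 at 3 days (SE 0.21, limma adjusted p = 0.168), the latter not called. Between both times Wwc1 differed by 1.61 (SE 0.39, limma adjusted p = 0.0072) and Wwc2 by 0.94 (SE 0.23, limma adjusted p = 0.0072). Both were called there, but each in 12 of the 28 settings tried. Without the MF libraries neither was called.

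Wwc1 was the major KIBRA transcript in every liver. The plain ratio of Wwc1 to Wwc2 was 2.84 to 3.51 in the control livers, 1.68 to 4.75 after 3 days and 4.29 to 5.82 after 7 days. In log2 it was 0.76 higher at 7 days than in controls (exact two-sided permutation p = 0.0286, adjusted 0.0514), and 0.10 higher at 3 days (exact permutation p = 0.914). The summed eRPKM of both genes was 21.96 ± 3.58 in controls, 44.0 ± 23.4 at 3 days and 109 ± 6.90 at 7 days.

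**Figure D3:**
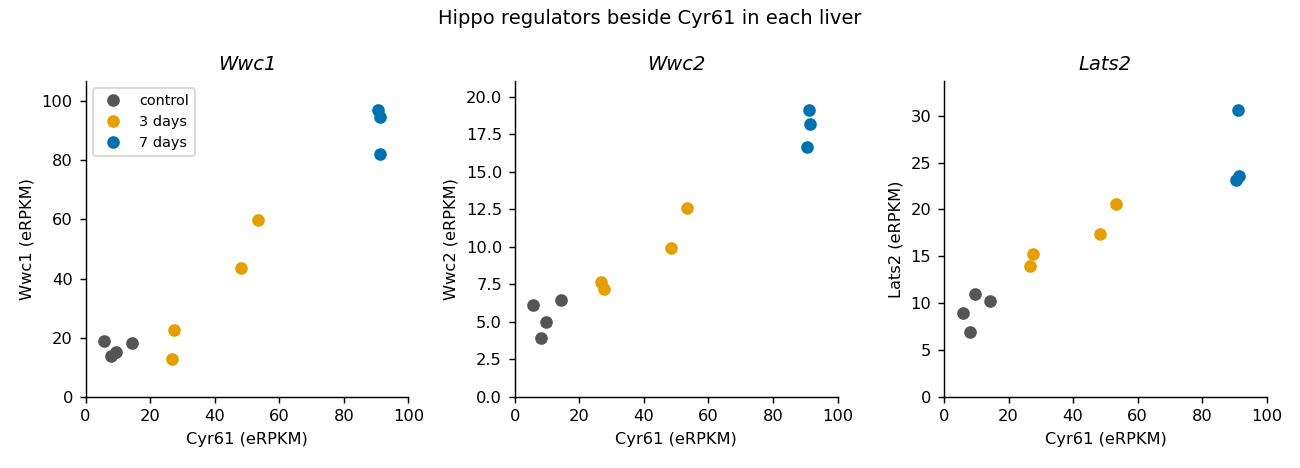
eRPKM of Wwc1, Wwc2 and Lats2 (vertical axes, from 0) against eRPKM of Cyr61 (horizontal axes, from 0), 1 point per liver and colored by group. At 3 days the livers with 26.8 and 27.5 eRPKM of Cyr61 are also the lowest 3-day livers in each panel.

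TEAD factors, the DNA-binding partners of YAP, recognize the letters GGAATG, or CATTCC on the other strand. RefSeq promoter windows of 300 bases (250 before and 50 after a start site, build GRCm38.p6) were held for 9 of the 10 genes, the exception being Stk3. The letters occurred in 4 of these 9 genes, a count per gene, and Lats2 and Nf2 had 2 windows each. Counted per window, they occurred in 14.7% of all 32851 windows. The share was 12.7% in windows of genes tested and 13.1% in windows of all genes that rose at 7 days. Of the members that rose, Wwc2 held 3 copies, at -203, -94 and -79 from its start, and Lats2 held 1, at +5. Only 43 windows, 0.131% of all, held 3 or more copies. Wwc1 and Stk4, which also rose, held none, and Sav1 and Ptpn14, which were not called at 7 days, held 1 each. A match describes letters and not a bound site. The windows are printed 5′ to 3′ along the gene with these letters in capitals: the 250 bases before the start of Wwc2 for its 3 copies (chr8:47990545-47990794, minus strand), 30 bases around the Lats2 copy (chr14:57746102-57746131, minus strand), and the 250 bases before the start of Wwc1, the strongest riser without a copy (chr11:35980528-35980777, minus strand).
Wwc2: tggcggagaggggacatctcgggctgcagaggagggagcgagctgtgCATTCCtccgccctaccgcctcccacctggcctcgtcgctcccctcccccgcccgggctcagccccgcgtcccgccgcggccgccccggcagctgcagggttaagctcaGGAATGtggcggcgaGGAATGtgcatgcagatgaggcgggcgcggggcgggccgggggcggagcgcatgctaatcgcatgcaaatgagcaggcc
Lats2: cgtgacgcccgtGGAATGccaacaatgtag
Wwc1: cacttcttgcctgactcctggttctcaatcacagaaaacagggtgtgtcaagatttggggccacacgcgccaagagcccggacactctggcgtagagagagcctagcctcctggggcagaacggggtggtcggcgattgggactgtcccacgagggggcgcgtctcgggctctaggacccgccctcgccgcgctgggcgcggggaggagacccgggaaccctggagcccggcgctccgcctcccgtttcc

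NF2 (merlin) brings LATS to the membrane, and FRMD6 is a membrane protein of the same FERM-domain class. Nf2, at chr11:4665848-4749539 on the minus strand (mm9), measured 10.4, 12.2, 12.3 and 7.80 eRPKM in controls and 8.64, 11.7, 15.4 and 9.27 at 3 days. At 7 days it measured 18.5, 16.8 and 18.3 eRPKM, above every other liver. The change from controls was 0.73 in log2 (SE 0.22), with a limma adjusted p of 0.0193, past 0.05 but not called. With size factors it was 0.47 and the adjusted p 0.0547.

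Frmd6, at chr12:71926501-72003219 on the plus strand (mm9), was low throughout. It measured 2.93, 3.82, 4.89 and 1.85 eRPKM in controls, 3.17, 2.38, 2.88 and 2.30 at 3 days, and 5.91, 5.07 and 5.34 at 7 days. The livers at 7 days lay above all others, but the log2 fold change of 0.68 (SE 0.28) had a limma adjusted p of 0.0714, and quantile normalization put it at -0.01. Against 3 days the difference was 0.91 (SE 0.28, limma adjusted p = 0.0234), also not called.

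Ptpn14, at chr1:191552147-191700574 on the plus strand (mm9), was the lowest of the 10 in each group. It measured 1.51, 1.48, 1.497 and 0.82 eRPKM in controls and 1.08, 0.79, 0.62 and 1.58 at 3 days. At 7 days it measured 2.29, 6.11 and 2.49 eRPKM, so that liver 2, one of the MF libraries, stood well above the other two. The log2 fold change was 1.08 at 7 days (SE 0.34, limma adjusted p = 0.0251), which was not called and was 0.68 without liver 2, and -0.29 at 3 days (SE 0.32, limma adjusted p = 0.751). Against 3 days it rose by 1.37 (SE 0.34, limma adjusted p = 0.0087), but it was called in 9 of 28 settings and not without liver 2 at 7 days. Its exons share 177 bases with Gm17653, a long noncoding RNA on the opposite strand. Reads were aligned as unstranded, and the strand setting of counting is not given in the sources used here.

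Across the 10 genes, 7 had all 3 livers at 7 days above all 4 controls and none had all 3 below. Over all genes tested the shares were 36.7% above and 13.3% below. The called set of 4 held in most settings. Lats2 and Wwc2 were called at 7 days in all 28 settings, and Wwc1 and Stk4 in 27 each. With log2 depth as a covariate only Lats2 and Wwc2 were called. Size factors called the same 4, beside a background of 13.7% called higher. Of all genes called at 7 days 75.7% were higher, against 60.9% with size factors and 50.5% with quantile normalization. The shallowest library, control 4, was the lowest control for 9 of the 10 members, and leaving it out kept Lats2, Stk4, Wwc1 and Wwc2 called.

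**Figure D4:**
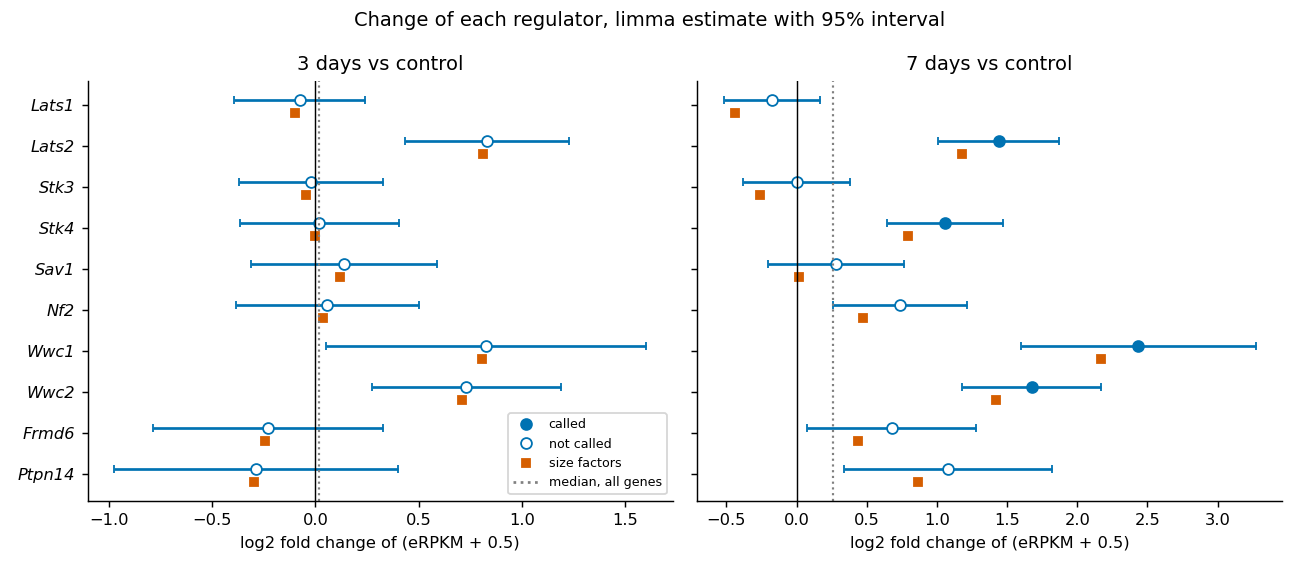
log2 fold change of (eRPKM + 0.5) against controls (horizontal axes) at 3 days and 7 days for the 10 regulators. Circles with bars are limma estimates with 95% intervals, filled where called, squares are estimates after size-factor scaling, and the dotted line is the median over all genes tested, 0.02 at 3 days and 0.26 at 7 days. Only Lats2, Stk4, Wwc1 and Wwc2 are filled, all at 7 days.

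The genes whose log2 values were most like Lats2 over the 11 livers were Ankle1 (Pearson r 0.971), Pawr (0.970), Haus8 (0.970), Crim1 (0.966) and Cep55 (0.965). Among the members Wwc2 came first, at rank 13 of the genes tested (r 0.959), then Wwc1 at rank 406 (r 0.885). Lats1 came last (r -0.21). The livers share their groups and depth differences, so these values describe the pattern only.

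Beyond the 10 members, 76 other genes of the wider pathway were in the table, in 8 lists, and 70 could be tested. These lists were chosen with earlier results of these data known, and they hold Tead1 and Tead4, whose rise the study reported. The counts beside all genes are therefore a description and not a test of the pathway. At 7 days 27 of the 70 (38.6%) rose and 3 fell, beside 18.0% of all genes called higher and 5.77% called lower. The median log2 fold change of the 70 was 0.57, beside 0.26 over all genes. With size factors 23 rose and 3 fell, beside 13.7% called higher. At 3 days none was called by limma or by limma-voom, and 10 (14.3%) had an unadjusted p under 0.05, beside 12.1% of all genes tested. Between 3 and 7 days 24 rose and 2 fell, beside 14.0% and 5.31% of all genes.

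The list with the highest median at 7 days (2.36) was the Angiomotin and Ajuba families, membrane and LIM proteins that bind YAP or LATS. Of its 6 genes 4 rose at 7 days. Ajuba measured 5.39 ± 1.47 eRPKM in controls, 29.8 ± 14.9 at 3 days and 65.2 ± 3.50 at 7 days (log2 fold change at 7 days 3.51, SE 0.34). Amotl2 measured 11.9 ± 2.10, 34.9 ± 20.9 and 96.2 ± 5.08 eRPKM (2.98, SE 0.37). Amot (2.17) and Wtip (2.55) also rose, while Amotl1 (-0.01) and Limd1 (0.19) were not called. As for Wwc1, livers 2 and 3 at 3 days were high in Amotl2, at 46.0 and 58.7 eRPKM, beside 14.9 and 19.99 in livers 1 and 4.

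Among 12 polarity and junction proteins 8 rose, among them Crb3, Ctnna1, Llgl1, Llgl2, Pard6b, Scrib and Tjp1. Pard6b, a subunit of the apical PAR complex, rose by 1.35 on the log2 scale (SE 0.24), and Crb3, an apical transmembrane protein, by 1.27 (SE 0.18). With size factors 6 of the 12 rose. Of the 3 tested FAT and Dachsous cadherins, Fat1 (1.09, limma adjusted p = 0.010), Dchs1 and Fat4, none was called.

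The core adaptors and parallel kinases moved both ways. Of 14 genes 3 rose, the MAP4K kinases Map4k2 (1.22), Map4k3 (0.99) and Map4k4 (1.49), which can act on LATS in place of MST. The 2 that fell were Mob1b (-0.91, SE 0.22), a LATS co-activator, and Stk38l (-1.35, SE 0.23), an NDR kinase related to LATS. Stk38l measured 19.6 ± 3.59 eRPKM in controls, 14.6 ± 3.88 at 3 days and 7.38 ± 1.505 at 7 days. Mob1a, the paralogue of Mob1b, was 39.6 ± 5.99, 55.4 ± 12.3 and 54.6 ± 1.005 eRPKM and was not called (0.47, limma adjusted p = 0.059).

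The RASSF proteins, which bind MST kinases, also split. Rassf1 (1.87), Rassf2 (2.16) and Rassf5 (1.13) rose, and Rassf6 fell from 17.0 ± 4.45 eRPKM in controls to 7.07 ± 1.31 at 7 days (-1.18, SE 0.24). In the STRIPAK complex, a phosphatase assembly that opposes MST, 2 of 11 were called higher (Ppp2r1a 0.72 and Sike1 0.93). That share of 18.2% is near the 18.0% over all genes, and with size factors 1 was called higher. In the list of proteins that retain YAP in the cytoplasm or mark it for breakdown, 4 of 11 rose, the casein kinases Csnk1d (0.86) and Csnk1e (1.36) and the 14-3-3 proteins Ywhag (0.83) and Ywhah (1.33). Among 7 effectors and competitors 3 rose. Tead4 was 0.31 ± 0.21 eRPKM in controls and 12.03 ± 2.20 at 7 days (3.98, SE 0.36), Tead1 rose by 2.25 (SE 0.33) and Wwtr1, which encodes TAZ, by 1.13 (SE 0.22).

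**Figure D5:**
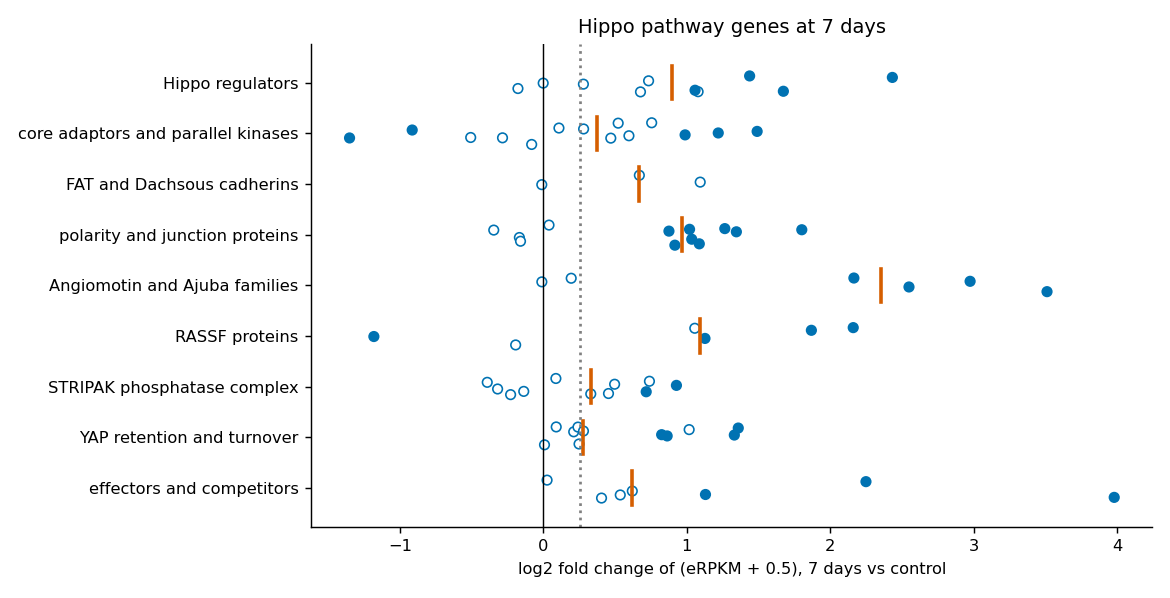
log2 fold change of (eRPKM + 0.5) at 7 days against controls (horizontal axis) for the 10 regulators and 8 further lists of pathway genes (vertical axis). Points are genes, filled where called, with random vertical scatter, thick orange bars are list medians and the dotted line is the median over all genes tested, 0.26. The Angiomotin and Ajuba families reach 3.51, and Stk38l, Mob1b and Rassf6 are the only filled points below 0.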

How the data were processed

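Total RNA of homogenized livers was made into TruSeq RNA v2 libraries and sequenced in pairs. Per the study's methods, low-quality bases were masked and reads aligned to mm9 with TopHat 2.0.8 as unstranded. The submitters' processing notes also list featureCounts 1.4.5-p1, SAMtools and DESeq2. The annotation used for counting and the treatment of duplicate reads are not given in the sources used here. The deposited values, made by the authors, are eRPKM (RPKM over exons) for each liver. The table also holds the authors' mean count, fold change and adjusted p for 7 days against controls, which were not used. Each gene's eRPKM were whole multiples of 1 step per library, and reads recovered from the steps were whole within 0.1 read for 100% of 177509 values. The 4 rows with repeated symbols were left out.

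The 14240 genes that reached 0.5 eRPKM in 3 or more livers were fitted together with limma 3.58.1 (R 4.3.3; trended eBayes, 3 groups in 1 fit) on log2(eRPKM + 0.5), with Benjamini-Hochberg adjustment over all of them; called means an adjusted p below 0.01 with a log2 fold change beyond 0.5 either way. Named genes were all 10 members, the called genes of the pathway lists at 7 days and the genes most like Lats2. Other pathway genes named with values were chosen after their values were seen. Dchs2 and Inadl of the pathway lists, and Adgre1 of the macrophage markers, were not matched. Members and lists were chosen with earlier results of these data known. Paralogue ratios were compared by exact two-sided permutation tests (scipy 1.17.1). Gene positions are from GENCODE M1 on mm9 and promoters from RefSeq, GRCm38.p6. Alternatives changed the pseudocount, filter, scaling, model, covariates and livers. On simulated reads for 7 days against controls (13961 genes), 13 of 100 genes changed by 0.75 and 91 of 100 changed by 1.5 on the log2 scale were called. No other genes were changed there and all shared a dispersion of 0.0234. In the data 23.7% of genes were called, which eases the adjusted p, so these recoveries need not hold for the data.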

Additional observations from a re-analysis of the deposited data

Results flagged for a closer look

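In controls, liver 4 was far below the others in Ptpn14, at 0.823 eRPKM beside 1.48 to 1.51, and its gap was 0.962 of the range, above Dixon's 95% limit for 4 samples. This was 1 of 26 sets of 4 livers examined, and chance flags about 1 in 20. Liver 4 is the shallowest library, with 14 reads or more for every member. The change from controls differed between 3 and 7 days for 4 members by the limma contrast of 7 against 3 days, which share the same controls: Stk4 by 1.04, Wwc1 by 1.61, Wwc2 by 0.94 and Ptpn14 by 1.37 on the log2 scale. Stk4 kept that call in 27 of 28 settings, Wwc1 and Wwc2 in 12 each and Ptpn14 in 9. The log2 ratio of Stk3 to Stk4 differed by -1.02 between 7 and 3 days (exact permutation p = 0.0286, adjusted 0.0514).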

How the results depend on the processing

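The 4 regulators called at 7 days became 2 with log2 depth as a covariate and 4 to 5 when 1 liver was left out. At 3 days 1 (Wwc1) was called without the libraries labelled MF, an alternative chosen after seeing the data, and none when 1 liver was left out. From 3 to 7 days the 4 calls were the least stable: 2 with no filter or quantile normalization, 1 with size factors, the compared groups only, Xist or depth as covariate, or female livers only, 0 without MF libraries, 7 at the looser threshold (adjusted p below 0.05, no bound on the fold change), and 1 to 5 when 1 liver was left out. Leaving out any 7-day liver, control 1 or control 3 gave 1 (Stk4), leaving out control 2 or 3-day liver 1, 2 or 4 gave 2, and leaving out control 4 gave 5. The replicate block gave 1 there and 12 of 26 pathway calls, and replicate numbers shared no deviation between groups (correlations of same-numbered livers -0.22 to 0.27), so they are only names. The 30 pathway calls at 7 days fell to 15 with depth, 19 in female livers only and 17 to 32 when 1 liver was left out (lowest without 7-day liver 2), and the 26 from 3 to 7 days to 12 with the compared groups only, 11 with Xist, 7 with depth, 10 in female livers, 5 without MF libraries, and rose to 41 at the looser threshold, with 7 to 34 when 1 liver was left out. At 3 days 1 pathway gene was called with size factors, robust eBayes, Xist, MF as covariate or the looser threshold, 2 without MF libraries, and 0 to 1 when 1 liver was left out. Directions turned for Stk4, Nf2, Lats1, Stk3, Sav1 and Frmd6, none of them in a called comparison. At 3 days Stk4 went to -0.0031 with size factors, -0.074 with quantile normalization, -0.069 with depth, -0.17 in female livers and -0.037 with limma-voom, and Nf2 to -0.013 with depth and -0.037 in female livers. At 7 days Sav1 went to -0.14 with quantile normalization and -0.11 with depth, Frmd6 to -0.0099 with quantile normalization, and Stk3 to 0.069 without MF libraries. From 3 to 7 days Stk3 went to -0.21, -0.39, -0.0073 and -0.032 with size factors, quantile normalization, Xist and depth, Sav1 to -0.10, -0.18 and -0.15 with size factors, quantile normalization and depth, and Lats1 to 0.0014 in female livers. With 1 liver left out, the ranges at 3 days were -0.18 to 0.0090 for Lats1, -0.097 to 0.079 for Stk3, -0.12 to 0.12 for Stk4, -0.054 to 0.28 for Sav1 and -0.099 to 0.17 for Nf2, and Stk3 ranged from -0.087 to 0.10 at 7 days and -0.064 to 0.096 from 3 to 7 days. Paralogue ratios with an exact p under 0.05 kept their direction, but most of the smaller designs could not reach that p. For Lats2 to Lats1 at 3 days the designs with 1 liver left out could reach it, and 4 of the 8 did not. In female livers Lats2 to Lats1 was 1.07 at 3 days and 1.58 at 7 days, Stk3 to Stk4 -1.07 at 7 days and -1.01 from 3 to 7 days, and Wwc1 to Wwc2 0.81 at 7 days. With 1 liver left out they were 0.80 to 1.05 and 1.52 to 1.68 for Lats2 to Lats1 at 3 and 7 days, -0.18 to 0.085, -1.18 to -0.95 and -1.14 to -0.88 for Stk3 to Stk4 at 3 days, at 7 days and from 3 to 7 days, and -0.088 to 0.41 and 0.66 to 0.88 for Wwc1 to Wwc2 at 3 and 7 days, the first turning sign without 3-day liver 2 or 3. In female livers that 3-day difference was 0.40 in place of 0.10. The causes were not tested. The lowest read count of any member in a library was 14, for Frmd6 and for Ptpn14.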
